A study of Homo sapiens with 8 samples.

Results

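ZR75-1 cells were compared with cells labelled SKBR3, both carrying an HSD17B14 plasmid, to describe which differences between these 2 human breast cancer lines stand when the plasmid is present in each. The comparison takes in 4 of the 8 arrays of the series, namely the 2 arrays titled as transfected ZR75-1 and the 2 titled as transfected SKBR3, chosen by title alone. The other 4 arrays hold the same lines after transfection with an equal amount of insert-free vector, 2 per line, and are used to see whether a line difference is also present there. Per the labels ZR75-1 is positive and SKBR3 negative for the estrogen receptor. All cells grew in medium without phenol red and with 4% fetal bovine serum, received the FuGene-6 reagent, and were harvested 48 h after transfection. The labels speak of duplicates and do not say whether each came from its own culture. The p-values therefore speak for the scatter between duplicate arrays alone, and that scatter may be technical.

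Breast cancer lines of luminal type are built around the estrogen receptor ESR1 and the transcription factors GATA3 and FOXA1, are held together by E-cadherin, and make secretory proteins of the mammary epithelium. Lines with mesenchymal features have little E-cadherin and carry vimentin, caveolin, matrix proteins and the proteases that remodel matrix. HSD17B14 encodes a hydroxysteroid dehydrogenase, one of a family of enzymes that interconvert the active and less active forms of estrogens and androgens or act on other lipids.

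Messenger RNA was read on Affymetrix HG-Focus arrays as 1 signal intensity per probe set, with 8746 probe sets tested after 47 control probe sets were left out. Log2 signals of the ZR75-1 arrays with the plasmid correlated at r = 0.90 with each other, those of the SKBR3-labelled arrays at r = 0.95, and pairs across the lines at 0.81 to 0.85, over probe sets that are not independent replicates. The Bacillus spike-in controls were high on array 2 and low on array 1 of each of these groups. With the vector they were low on both ZR75-1 arrays, and low on array 1 and high on array 2 of the SKBR3-labelled cells. The actin 3'/5' ratio, a measure of RNA integrity, was 2.83 and 2.66 in ZR75-1 and 2.28 and 3.09 in the SKBR3-labelled cells with the plasmid. There the lines overlapped. With the vector it was 2.0335 and 2.0185 in ZR75-1 and 3.6025 and 2.9959 in the SKBR3-labelled cells, so there the lines did not overlap. The part of that gap in the vector differences, or in any contrast of plasmid and vector pairs, was not tested. In bulk RNA, fewer cells of a kind and less RNA per cell cannot be told apart.

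The label SKBR3 was checked against markers of that line. SKBR3 cells are known for amplified ERBB2, the gene of the receptor HER2, together with its neighbours GRB7 and STARD3. ERBB2 had signals of 33.6 and 46.8 on the SKBR3-labelled arrays and 110.9 and 95.9 on the ZR75-1 arrays. It was thus lower in the cells that bear the label of the amplified line, on both arrays, with a log2 difference (ZR75-1 minus SKBR3-labelled, here and below) of 1.38 ± 0.30 (limma, adjusted p = 0.00611). That call was lost without array 1 of either line and with a prior not dependent on the mean (adjusted p up to 0.0708). GRB7 lay at 8.4 and 4.1 against 18.8 and 8.9, and STARD3 at 31.1 and 36.4 against 24.8 and 26.6, and neither passed (adjusted p = 0.387 and 0.616). The simple keratins KRT8, KRT18 and KRT19 were present in both lines. ESR1 was lower in the SKBR3-labelled cells than in ZR75-1 (log2 difference 3.40 ± 0.33), which goes with the receptor-negative status in the labels. CDH1, VIM, CAV1 and AXL, read below, were not part of this check. Because ERBB2 goes against the label, these cells are called SKBR3-labelled throughout. In ZR75-1 the estrogen receptor, GATA3, FOXA1, TFF1 and E-cadherin were all well above background, and the progesterone receptor PGR was not, at 22.8 and 2.6.

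HSD17B14 itself was read first, since both arms carry it. With the plasmid its signals were 107.5 and 135.3 in ZR75-1 and 650.7 and 743.6 in the SKBR3-labelled cells. The arrays of the lines did not overlap, and the signal was 5.77-fold higher in the SKBR3-labelled cells (log2 difference -2.53 ± 0.79, adjusted p = 0.0401). With the vector the signals were 17.8 and 2.1 in ZR75-1 and 2.0 and 4.2 in the SKBR3-labelled cells, under the floor used below on 3 of these 4 arrays, and the lines overlapped. In the main fit the test of the difference between the plasmid and vector pairs did not pass (limma interaction -3.61 ± 1.11, adjusted p = 0.302). With values raised to the floor, or with 32 added to each value, 1 HSD17B gene passed that test with an interaction below 0. Raised to the floor, the HSD17B14 line difference was -2.53 with the plasmid and 0.01 with the vector. No other measured member had a difference lower with the plasmid by nearly as much (HSD17B4 was next, at 0.46 and 0.63). The gene that passed with values raised to the floor was thus HSD17B14. In the main fit its call is the one between the lines with the plasmid. The call is fragile, since it was lost without any 1 of the 4 plasmid arrays or either SKBR3-labelled vector array, after quantile normalization and with a prior not dependent on the mean (adjusted p up to 0.234). The direction and size of the HSD17B14 difference held, at -2.694 to -2.252 log2 units under the alternatives. The smallest limma adjusted p among them was 2.57e-05. Every line difference below is therefore a difference between cells whose HSD17B14 signals were themselves unequal. The part of that inequality in any line difference was not tested. The probe set is of a type that can bind related transcripts.

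Other members of the HSD17B family differed between the lines with either plasmid. HSD17B1, which reduces estrone to estradiol, had signals of 36.2 and 61.0 in ZR75-1 and 1.2 and 1.1 in the SKBR3-labelled cells. The latter lie under 17.6, taken here as the common floor because no array's 40th percentile of signal was higher. Where both arrays of a group lie under the floor, the floor stands in for them and the fold is given as at least its value. HSD17B1 was at least 2.67-fold higher in ZR75-1 (adjusted p = 0.00136). HSD17B11, a short-chain dehydrogenase found on lipid droplets, ran the other way, at 7.1 and 4.9 in ZR75-1 and 316.1 and 334.3 in the SKBR3-labelled cells, at least 18.5-fold higher there (adjusted p = 3.7e-06). HSD17B10, a mitochondrial member, was 2.14-fold higher in ZR75-1 (513.4 and 601.0 against 261.3 and 258.8). HSD17B12, which elongates fatty acids, was 1.35-fold higher in the SKBR3-labelled cells (401.6 and 406.1 against 526.3 and 563.2), a call lost without any 1 of the 4 plasmid arrays (adjusted p up to 0.259). HSD17B4 (adjusted p = 0.0671) and HSD17B7 (0.845) did not pass, and HSD17B2, HSD17B3 and HSD17B6 lay under the floor in both lines. HSD17B1, HSD17B10, HSD17B11 and HSD17B12 were called with the vector too, in the same direction.

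**Figure D1:**
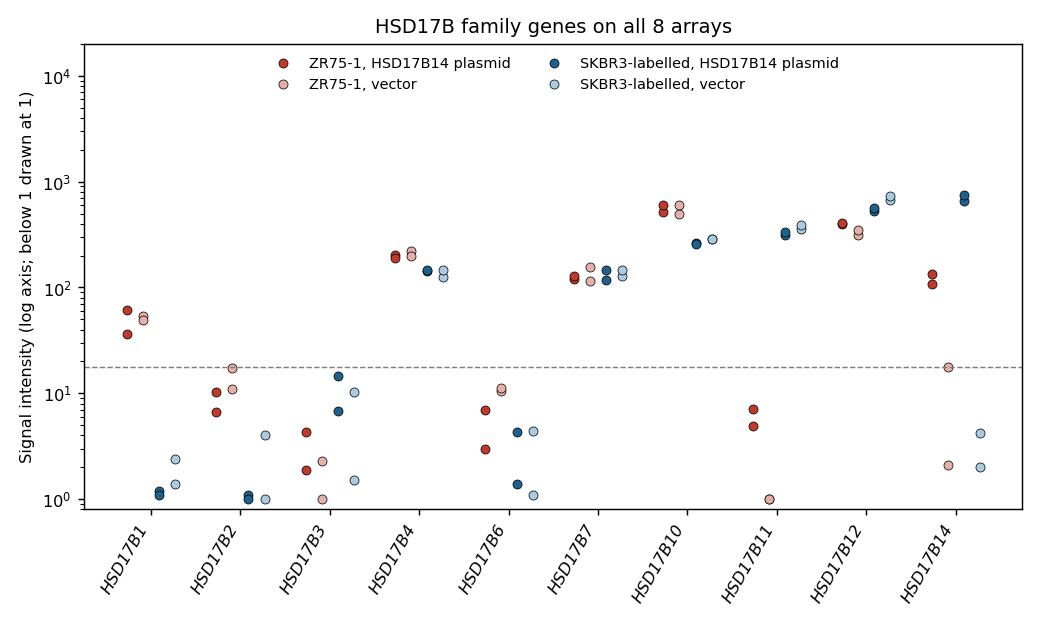
Signal intensity (log axis, values below 1 drawn at 1) of the 10 measured HSD17B genes on all 8 arrays, 1 point per array, with the common floor as a dashed line. HSD17B14 is high on the plasmid arrays of each line and higher in the SKBR3-labelled cells, while HSD17B11 is above the floor in the SKBR3-labelled cells with plasmid and vector alike.

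Across all probe sets the lines differed widely with the plasmid. Of 8746 probe sets, 1934 passed (22.1%), 888 of them higher in ZR75-1 (10.2%) and 1046 higher in the SKBR3-labelled cells (12%). These stand for 795 and 938 of 7713 named genes, over which the median log2 difference was 0.0058. For 60.2% of all probe sets both arrays of one line lay above both of the other, so a lack of overlap at 2 arrays per line is common and adds little to a call. In 1433 of the calls all 4 arrays lay above the floor, out of 3861 such probe sets. In 368 both arrays of 1 line lay under it, in 112 some arrays of a line did, and in 21 both lines lay under it. The count depends on single arrays: it was 1209 without SKBR3-labelled array 1, 1178 without array 2, 1275 without ZR75-1 array 1 and 1453 without ZR75-1 array 2. In simulated data of this design 40.1% of 2-fold and 82.6% of 4-fold differences were recovered and 4.81% of calls were false. There 200 of 8746 probe sets were changed, all of higher mean signal, far fewer than the 22.1% called here. The simulated scatter was that of duplicate arrays, so these figures do not speak for separate cultures.

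Most of these differences were also present with the vector, on 4 other arrays. There 2405 probe sets passed (27.5%), and 1533 passed in both pairs in the same direction, 727 higher in ZR75-1 and 806 higher in the SKBR3-labelled cells. That is 79.3% of the calls with the plasmid and 63.7% of those with the vector. Of the calls with the plasmid, 1890 (97.7%) had the same sign with the vector, 398 passed with the plasmid alone, and 3 passed in opposite directions. Of the 398, 357 had the same sign with the vector, 41 had the opposite sign, and 0 passed limma's test of the difference between the pairs (the line by plasmid interaction). Large differences were shared nearly without exception. With values raised to the floor, 165 calls were at least 2 log2 units higher in ZR75-1 and 164 of these were called with the vector, and 253 of 262 in the other direction. At 4 log2 units or more the counts were 26 of 26 and 33 of 33. Among 1369 calls above the floor on all 8 arrays the median size of the difference was 1.15 with the plasmid and 1.22 with the vector. Both tests took the spread of a probe set from all 8 arrays, so the overlap of calls is not one of independent tests. With each pair fitted on its own 4 arrays, 1306 passed in both in the same direction, of 2000 with the plasmid and 1744 with the vector. The count of 1533 was 911 with a prior not dependent on the mean and ran from 1039 to 1426 when 1 array was left out.

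**Figure D2:**
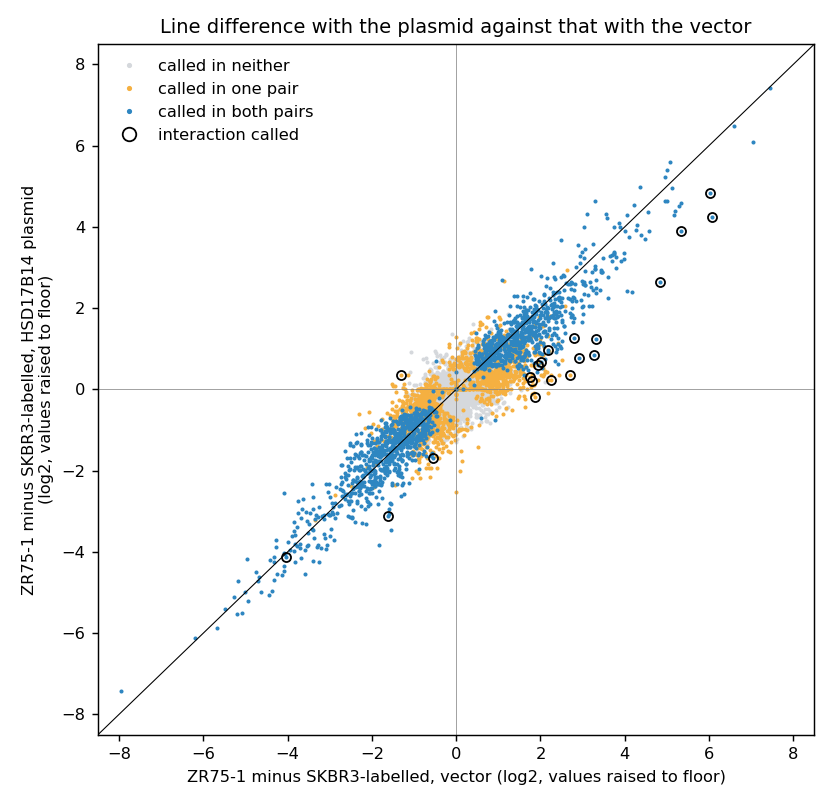
Log2 difference between the lines (ZR75-1 minus SKBR3-labelled) with the plasmid (vertical) against that with the vector (horizontal), 1 point per probe set, after values were raised to the common floor, with the diagonal drawn. Probe sets called in both pairs lie along the diagonal, and most of the 20 probe sets with a called interaction (circles) lie below it, at a positive difference with the vector and a smaller one with the plasmid.

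The luminal transcription factors and receptors were higher in ZR75-1. Of 20 measured, 12 were higher, 0 lower and 8 did not pass, against 22.1% of all probe sets called, and the median difference was 1.94 (1.45 with values raised to the floor). ESR1, the estrogen receptor, had signals of 194.5 and 224.4 in ZR75-1 and 24.6 and 16 in the SKBR3-labelled cells, a difference of 3.40 ± 0.33 (adjusted p = 2.47e-05). GATA3, which sustains luminal identity, read 1516.1 and 1220.8 against 405.9 and 404.7, 3.36-fold higher. The SKBR3-labelled cells thus had GATA3 well above the floor while ESR1 was near it, and neither gene's arrays overlapped. TFAP2B, a factor of the AP-2 family, read 291.6 and 246.3 in ZR75-1 and 0.5 and 0.6 in the SKBR3-labelled cells, at least 15.2-fold higher. Its relative TFAP2A was 6.79-fold higher. ELF3, an epithelial Ets factor, was 11.8-fold higher (adjusted p = 7.94e-07), and XBP1, which drives the secretory pathway, was 4.32-fold higher. FOXA1, the pioneer factor for the estrogen receptor, read 97.5 and 74.2 against 18.0 and 25.6 (3.96-fold, adjusted p = 0.018). ERBB3, a partner of HER2, read 114.0 and 108.0 against 13.6 and 17.7. Of the 12, 11 were called with the vector too.

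Estrogen-responsive genes followed in part. Of 34 measured, 18 were higher in ZR75-1, 3 were higher in the SKBR3-labelled cells and 13 did not pass. That is 61.8% called, against 22.5% of all genes. The median was 1.32 (1.05 with values raised to the floor), and 19 were called in the same direction with the vector. TFF1, a secreted trefoil peptide and classic estrogen target, read 2767.7 and 2472.0 in ZR75-1 and 1073.3 and 1060.9 in the SKBR3-labelled cells. It was 2.45-fold higher in ZR75-1 (adjusted p = 5.45e-05), and its signal in the SKBR3-labelled cells lay far above the floor. CA12, a carbonic anhydrase, was 19.7-fold higher (1390.4 and 1381.1 against 68.6 and 71.9, adjusted p = 9.04e-09). AGR2, a protein disulfide isomerase of secretory cells, was 6.46-fold higher, the co-chaperone FKBP4 6.12-fold and TPD52L1 6.92-fold. The 3 that were higher in the SKBR3-labelled cells were IRS1, which relays insulin and IGF signals (3.05-fold), IGFBP4, which binds IGFs (8.6-fold), and UGCG, which makes glucosylceramide (1.75-fold). PGR did not pass (adjusted p = 0.103).

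Secretory proteins of the mammary gland were among the genes with large differences toward ZR75-1. SCGB2A2, the secretoglobin mammaglobin, read 3337.4 and 2680.5 in ZR75-1 and 2.3 and 8.0 in the SKBR3-labelled cells, at least 170-fold higher. Its partner SCGB1D2 read 814.5 and 878.3 against 1.1 and 0.8, at least 48.1-fold higher, and AZGP1, a secreted zinc-binding glycoprotein, 669.3 and 837.6 against 2.4 and 4.6, at least 42.5-fold higher. All these signals were under the floor in the SKBR3-labelled cells and high on both ZR75-1 arrays. TFF3, a further trefoil peptide, read 641.3 and 698.8 against 15.2 and 18.4, a difference of 5.32 ± 0.23. PIP, a prolactin-induced secreted protein, was at least 20-fold higher, and CRABP2, which carries retinoic acid to the nucleus, 10.4-fold. MUC1, a membrane mucin, was 19-fold higher with the plasmid (567.1 and 413.3 against 26.7 and 24.4). Of 29 secretory genes 19 were higher in ZR75-1 and 2 in the SKBR3-labelled cells, with a median of 2.39 (1.6 with values raised to the floor). The 2 were TSPAN8, a tetraspanin, and CST4, a cystatin. These 21 are 72.4% of the list, against 22.5% of all genes, and 18 of them were called in the same direction with the vector.

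Outside that list CRIP1, a small LIM-domain protein, read 1538.7 and 1617.5 in ZR75-1 and 0.6 and 2.5 in the SKBR3-labelled cells, at least 89.6-fold higher. S100A8 and S100A9, which form the calcium-binding heterodimer calprotectin, read 3102.8 and 3167.1 against 48.0 and 43.6 and 1335.7 and 1441.1 against 54.2 and 43.1. These are 68.5-fold and 28.7-fold differences, with no overlap between lines. S100A14 was 31.7-fold higher and S100P 18.7-fold, whereas S100A2 read 11.1 and 25.5 in ZR75-1 and 296.0 and 298.1 in the SKBR3-labelled cells. Of 17 S100 genes 5 were higher in ZR75-1 and 2 in the SKBR3-labelled cells (S100A2 and S100A6), and all 7 were called with the vector. The 7 are 41.2% of the list, against 22.5% of all genes. ASS1, the argininosuccinate synthase, was 24-fold higher in ZR75-1 (1069.4 and 1137.3 against 43.1 and 48.9), and EEF1A2, a translation elongation factor, 20.9-fold (1439.8 and 1090.4 against 67.5 and 53.1). The chaperone HSPB8 read 681.9 and 667.6 against 15.9 and 27.2. NUPR1, a stress-induced nuclear protein, was at least 24.8-fold higher, and CGA, the common subunit of glycoprotein hormones, at least 19.8-fold.

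Epithelial junction genes were mostly higher in ZR75-1. CDH1, which encodes E-cadherin, read 1292.9 and 1508.4 in ZR75-1 and 58.1 and 54.8 in the SKBR3-labelled cells, 24.8-fold higher (log2 difference 4.63 ± 0.22, adjusted p = 1.69e-07). With the vector it read 1173.3 and 1074.7 against 26.8 and 45.7, so the lines stood apart on all 8 arrays. EPCAM, an epithelial adhesion molecule, was 4.79-fold higher (715.5 and 1056.3 against 180.7 and 182.0). CLDN7, a claudin of tight junctions, was 4.18-fold higher (277.3 and 312.9 against 63.2 and 78.5). The membrane protease ST14 was at least 6.04-fold higher, its inhibitor SPINT1 at least 13.9-fold and SPINT2 2.59-fold. Of 34 junction and adhesion genes 16 were higher in ZR75-1, 4 were higher in the SKBR3-labelled cells and 14 did not pass. That is 58.8% called, against 22.5% of all genes. The median was 1.63 (0.99 with values raised to the floor), and 18 were called in the same direction with the vector. The 4 were the desmosomal proteins DSP and DSG2, the adaptor subunit AP1M2 and PERP. Their count was 1 or 2 without any 1 of the 4 plasmid arrays.

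The promoter of CLDN7 is shown because repressors of epithelial genes, among them SNAI2, are known to bind the E-box letters CAGGTG, and because it held matches. Sequences are from RefSeq (GRCh38.p14), written 5′ to 3′ on the gene's strand, from 250 bases before the start site to 50 after it, with matches on either strand in capitals. CLDN7 lies on the minus strand at chr17:7262429-7262728, has 2 windows in the table, and held 5 matches in this one. Where a gene has several windows, the one printed was chosen for having the most matches.
CLDN7: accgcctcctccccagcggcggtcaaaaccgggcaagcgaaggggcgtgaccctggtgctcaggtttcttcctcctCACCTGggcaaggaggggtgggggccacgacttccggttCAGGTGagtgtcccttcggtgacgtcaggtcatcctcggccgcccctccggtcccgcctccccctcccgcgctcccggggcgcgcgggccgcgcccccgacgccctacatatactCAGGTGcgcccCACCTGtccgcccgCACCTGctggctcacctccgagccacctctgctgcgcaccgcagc
The letters were found in 14 of 37 windows of the junction genes (37.8%) and in 20.6% of all 35116 windows in the table. Of windows of genes called higher in ZR75-1, 23.2% held them, of those higher in the SKBR3-labelled cells 15.1%, and of all genes on the array 18.9%. These shares describe letters in a window and were not tested, nor was binding or repression by SNAI2 or any other factor.

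With the plasmid the called keratins were all of simple epithelia. KRT8, KRT18 and KRT19, the keratins of simple epithelia, were higher in ZR75-1 by 4.78-fold, 2.73-fold and 4.73-fold, yet stood far above the floor in both lines (KRT18 at 8578.7 and 7006.5 against 2786.8 and 2896.2). KRT7 did not pass (108.7 and 152.3 against 195.3 and 180.5, adjusted p = 0.125). With the vector KRT7 was called higher in the SKBR3-labelled cells (log2 difference -1.07, limma adjusted p = 0.0043). Of 11 basal and other keratins 0 were called by limma with the plasmid, against 22.5% of all genes. KRT5, the keratin of basal cells, was under the floor in both lines, and 7 of the 11 were.

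Genes of the mesenchymal state, where called, were nearly all higher in the SKBR3-labelled cells. VIM, the intermediate filament vimentin, read 3675.6 and 3646.2 there and 25.7 and 0.4 in ZR75-1, a log2 difference of -9.50 ± 1.08 (adjusted p = 7.4e-05) and of -7.43 with values raised to the floor. CD44, the hyaluronan receptor, read 566.3 and 618.6 against 13.2 and 19.5 in ZR75-1, a difference of -5.21 ± 0.27. AXL, a receptor kinase, read 275.4 and 428.9 against 20.6 and 2.7. All 3 were near or under the floor in ZR75-1 and called with the vector. NT5E, an ectonucleotidase of the cell surface, was at least 33.5-fold higher and the membrane protein EMP3 at least 45.7-fold. CCN1 and CCN2, secreted matricellular proteins, were 17.3-fold and at least 26.5-fold higher. Of 30 mesenchymal markers 18 were higher in the SKBR3-labelled cells, 1 in ZR75-1, and 11 did not pass. That is 63.3% called, against 22.5% of all genes, and 8 of the 30 lay under the floor in both lines. The median was -3.33 (-2.25 with values raised to the floor), and 17 were called in the same direction with the vector. The 1 higher in ZR75-1 was the transcription factor TWIST1, at 22.5 and 14.1 against 0.3 and 3.6. SNAI2, a repressor of E-cadherin, was at least 7.27-fold higher in the SKBR3-labelled cells, and its part in their lower CDH1 signal was not tested.

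**Figure D3:**
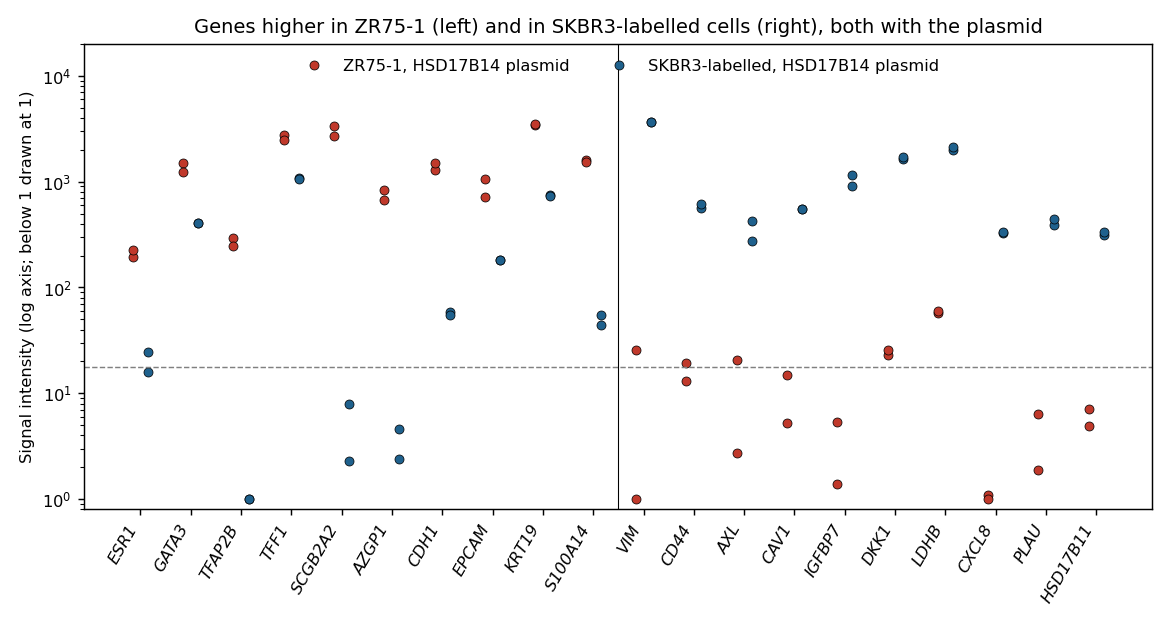
Signal intensity (log axis, values below 1 drawn at 1) on the 2 ZR75-1 and the 2 SKBR3-labelled arrays with the HSD17B14 plasmid, 1 point per array, with the common floor as a dashed line. Genes at the left, such as ESR1, SCGB2A2 and CDH1, lie higher in ZR75-1 and those at the right, such as VIM, CAV1 and CXCL8, lie higher in the SKBR3-labelled cells, with no overlap between the lines for any gene drawn.

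Genes of caveolae, the contractile apparatus and actin binding went the same way. CAV1, the coat protein of caveolae, read 555.1 and 557.6 in the SKBR3-labelled cells and 14.9 and 5.2 in ZR75-1, at least 31.6-fold higher. ANXA1 and ANXA3, annexins that bind membranes in the presence of calcium, were 7.01-fold and 9.12-fold higher, and ANXA5 4.49-fold. ANXA1 and ANXA3 were nonetheless above the floor on both ZR75-1 arrays (238.0 and 252.5 for ANXA1). ACTN1, an actin crosslinker, was 3.86-fold higher, CAPG, which caps actin filaments, 9.5-fold, and FHL2, a LIM-domain cofactor, 4.42-fold. Of 40 such genes 21 were higher in the SKBR3-labelled cells and 1 in ZR75-1, 55% called in all, against 22.5% of all genes. The median was -1.40 (-0.79 with values raised to the floor), and 20 were called in the same direction with the vector. The 1 higher in ZR75-1 was TAGLN2, at 1.82-fold.

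Matrix proteins and proteases were also higher in the SKBR3-labelled cells, in 19 of 47 genes against 4 in the other direction, with a median of -0.88 (-0.38 with values raised to the floor). PLAU, the urokinase plasminogen activator, read 393.5 and 442.2 there and 1.9 and 6.4 in ZR75-1, at least 23.7-fold higher, and PLAT, the tissue activator, at least 31-fold. COL13A1, a membrane collagen, was at least 22.1-fold higher and TGM2, a transglutaminase that crosslinks matrix, at least 8.38-fold. TIMP1, an inhibitor of metalloproteinases, was 7.71-fold higher (98.7 and 83.0 against 696.4 and 699.5) and LAMB3, a laminin chain, 12.3-fold. The 23 called are 48.9% of the list, against 22.5% of all genes, and 20 of them were called in the same direction with the vector. The 4 higher in ZR75-1 were the lysosomal proteases CTSB and CTSV, the gelatinase MMP9 and the collagen chain COL1A1. Their count was 1 or 2 without any 1 of the 4 plasmid arrays. Integrins, receptors for matrix, were called at the share of all genes (21.1% against 22.5%), with 4 of 19 higher in the SKBR3-labelled cells, 0 in ZR75-1 and a median of 0.0 with values raised to the floor. ITGA3 was among the 4 (155.0 and 156.1 against 7.4 and 19.9).

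The called growth factor signalling genes leaned to the SKBR3-labelled cells. Of 42 receptors and ligands 12 were higher there and 2 in ZR75-1, with a median of -0.60 (0.0 with values raised to the floor), and 11 were called in the same direction with the vector. The share called was 33.3%, against 22.5% of all genes. PDGFC, a platelet-derived growth factor, read 912.3 and 1028.0 against 40.5 and 33.8 in ZR75-1, 26.2-fold higher (adjusted p = 1.09e-07). GAS6, the ligand of AXL, was 7.32-fold higher and VEGFC, a lymphatic growth factor, at least 11.9-fold. EPHA2, an ephrin receptor, read 258.7 and 193.2 against 16.7 and 30.4, whereas its ligand EFNA1 was 4.14-fold higher in ZR75-1 (309.1 and 323.6 against 71.9 and 81.1). The 2 higher in ZR75-1 were EFNA1 and the receptor FGFR3. EGFR read 18.1 and 17.7 in ZR75-1 and 22.0 and 21.5 in the SKBR3-labelled cells and did not pass (difference -0.28 ± 0.58, adjusted p = 0.825).

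The insulin-like growth factor system differed member by member. IGFBP7 read 911.7 and 1162.8 in the SKBR3-labelled cells and 1.4 and 5.4 in ZR75-1, at least 58.5-fold higher. IGFBP1 was at least 14.3-fold higher, and the adaptor IRS2 6.69-fold (175.8 and 210.9 against 28.1 and 29.5). IGFBP2 ran the other way, at 263.4 and 313.1 in ZR75-1 and 14.8 and 21.4 in the SKBR3-labelled cells, a difference of 4.01 ± 0.35. Of 14 genes 7 were higher in the SKBR3-labelled cells and 1 in ZR75-1, with a median of -1.13. These 8 are 57.1% of the list, against 22.5% of all genes, and all were called in the same direction with the vector. The receptors IGF1R and INSR did not pass (adjusted p = 0.851 and 0.915).

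Outside these lists DKK1, a secreted inhibitor of Wnt signalling, read 1635.2 and 1709.9 in the SKBR3-labelled cells and 23.1 and 25.4 in ZR75-1, 69-fold higher (adjusted p = 4.89e-08). With the vector it read 1532.1 and 1749.6 against 28.0 and 16.3, so the lines were equally far apart there. PHLDA1 was at least 46-fold higher, PRSS23, a secreted protease, 42.4-fold, F3, the tissue factor that starts coagulation, at least 25.8-fold and JAG1, a Notch ligand, at least 23.2-fold. SRGN, a proteoglycan of secretory granules, read 660.3 and 785.2 against 21.3 and 8.7, and CDC42EP3 was at least 23.3-fold higher. All were called with the vector in the same direction.

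Enzymes that handle steroids and foreign compounds were called no more often than genes at large, 22.9% of them against 22.5% of all genes. Of 48, 7 were higher in ZR75-1 and 4 in the SKBR3-labelled cells (median 0.13, and 0.0 with values raised to the floor). All 11 were called with the vector in the same direction. SULT1A1, a sulfotransferase that conjugates phenols and estrogens, read 305.6 and 303.3 in ZR75-1 and 37.6 and 27.9 in the SKBR3-labelled cells, 9.4-fold higher. SULT2B1, which sulfates cholesterol, was at least 3.97-fold higher. EPHX1, the microsomal epoxide hydrolase, was 6.2-fold higher with the plasmid (218.7 and 158.5 against 32.8 and 27.5). CBR1, a carbonyl reductase, read 160.9 and 157.5 in the SKBR3-labelled cells and 0.9 and 3.1 in ZR75-1, at least 9.05-fold higher.

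Antioxidant genes split as well, 8 of 35 higher in ZR75-1 and 12 in the SKBR3-labelled cells, with a median of -0.12, and 17 were called in the same direction with the vector. The share called was 57.1%, against 22.5% of all genes. The glutathione peroxidases took opposite sides. GPX1 was 10.5-fold and GPX3 9.9-fold higher in the SKBR3-labelled cells (527.4 and 489.7 against 51.3 and 45.7 for GPX1). GPX4, which reduces lipid peroxides in membranes, was 3.11-fold higher in ZR75-1 (1557.8 and 1276.9 against 460.1 and 448.2). Catalase (CAT) was 2.65-fold and the transferase GSTM3 5.05-fold higher in the SKBR3-labelled cells. Of 5 metallothioneins, which bind zinc and copper, MT1H, MT1X and MT2A were higher there by 5.01-fold, 3.25-fold and 2.45-fold, and MT1G and MT3 lay under the floor in both lines.

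Mitotic genes were called in 51.2%, against 22.5% of all genes. They were higher in the SKBR3-labelled cells in 18 of 41 and lower in 3, with a median of -0.65, and 19 were called in the same direction with the vector. CDC20, which turns on the anaphase-promoting complex, was 3.47-fold higher (465.1 and 526.7 against 147.0 and 138.3) and the kinesin KIF20A 3.33-fold. BUB1, a kinase of the spindle checkpoint, was 2.47-fold higher, CCNA2, cyclin A, 2.4-fold and TOP2A, which untangles DNA, 2.37-fold. HMMR, a hyaluronan receptor of the spindle, was 4.83-fold higher in ZR75-1 (234.8 and 246.8 against 45.3 and 54.8), with the kinase NEK2 and the ubiquitin-conjugating enzyme UBE2S. The count of 18 was 11 with a mean-independent prior. Of 39 genes of entry into and passage through replication 10 were higher in the SKBR3-labelled cells and 4 in ZR75-1 (median -0.19, 35.9% called). These included GMNN, geminin, at 3.56-fold, MCM3 at 3.32-fold and TYMS, thymidylate synthase, at 2.34-fold. The count of 10 was 6 without either array 1 and 5 without SKBR3-labelled array 2, and that of 4 was 1 without any 1 of the 4 plasmid arrays.

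Among glycolysis and citrate cycle genes LDHB, a lactate dehydrogenase subunit, had the smallest p-value of all genes named here. It read 1994.2 and 2117.8 in the SKBR3-labelled cells and 58.0 and 60.4 in ZR75-1, 34.7-fold higher (adjusted p = 3.83e-09), and 2450.1 and 2682.8 against 66.0 and 67.3 with the vector. LDHA, the other main subunit, did not pass (2862.1 and 2646.0 in ZR75-1 against 3668.2 and 3768.1, adjusted p = 0.0771). IDH2, a mitochondrial isocitrate dehydrogenase, was 9.55-fold higher in ZR75-1 and the transketolase TKT 2.89-fold. Of 33 such genes 10 were higher in ZR75-1 and 8 in the SKBR3-labelled cells, with a median of 0.03 (54.5% called, against 22.5% of all genes). The count of 8 was 5 without either array 1 and 4 without either array 2.

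Genes of cholesterol and fatty acid metabolism were called in 37.1%, against 22.5% of all genes. They were higher in ZR75-1 in 11 of 35 and lower in 2, with a median of 0.17. FASN, the fatty acid synthase, was 4.74-fold higher (371.2 and 319.9 against 71.8 and 73.7), SCD, the stearoyl desaturase, 3.32-fold, and SQLE, an early enzyme of sterol synthesis, 3.08-fold. ACOX2, a peroxisomal oxidase, was 6.05-fold higher. The list thus holds oxidation genes beside those of synthesis, and the 2 lower members are also of fatty acid oxidation. The count of 11 was 7 without ZR75-1 array 1, and 9 of the 13 were called in the same direction with the vector.

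Regulators of growth arrest and cell death gave no common direction. Of 37 apoptosis genes 5 were higher in ZR75-1 and 8 in the SKBR3-labelled cells (median -0.09, 35.1% called against 22.5% of all genes). PMAIP1, the BH3-only protein NOXA, read 606.5 and 267.6 in the SKBR3-labelled cells and 94.8 and 68.8 in ZR75-1, and BCL2L1, which opposes apoptosis, was 2.96-fold higher in the SKBR3-labelled cells. The count of 8 was 5 without SKBR3-labelled array 1, and that of 5 was 3 without SKBR3-labelled array 2 or ZR75-1 array 1. Of 36 genes of TGF-beta signalling 6 were higher in ZR75-1 and 4 in the SKBR3-labelled cells, with a median of 0.09, and their share called was close to that of all genes (27.8% against 22.5%). ID2 and ID3, inhibitors of bHLH factors, were 10.3-fold and 8.97-fold higher in ZR75-1, while TGFBR2, the type II receptor, was at least 11.5-fold higher in the SKBR3-labelled cells (204.6 and 200.2 against 11.5 and 11.5).

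Cancer-testis antigens, germline genes that tumours can express, were under the floor in both lines for 16 of 20. The share called was 20%, against 22.5% of all genes. MAGEA6 (265.7 and 299.4 in ZR75-1 against 1.3 and 2.5), MAGEA12 and PRAME were at least 16-fold, 12-fold and 6.06-fold higher in ZR75-1. BRDT was called while under the floor in both lines (adjusted p = 0.0444), and that call was lost under 9 alternatives, among them leaving out any 1 of the 4 plasmid arrays. Markers of other cells were near background. Of 19 leukocyte markers 13 were under the floor in both lines and CD74 was the 1 called, at 75.9 and 99.2 in the SKBR3-labelled cells and 20.7 and 15.2 in ZR75-1, and their summed signal was 177.2 and 139.0 in ZR75-1 and 203.3 and 275.6 in the SKBR3-labelled cells. Of 9 endothelial markers 8 were under the floor in both lines (summed signal 65.6 and 15.3 against 41.2 and 61.0). Of 10 fibroblast markers 8 were too (81.2 and 96.3 against 75.8 and 94.0). The summed signals of the last 2 overlapped between the lines. COL1A1 was the 1 fibroblast marker called, at 21.8 and 40.3 in ZR75-1 against 3.4 and 5.5, and lost its call without SKBR3-labelled array 1 or ZR75-1 array 2 (adjusted p up to 0.272).

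**Figure D4:**
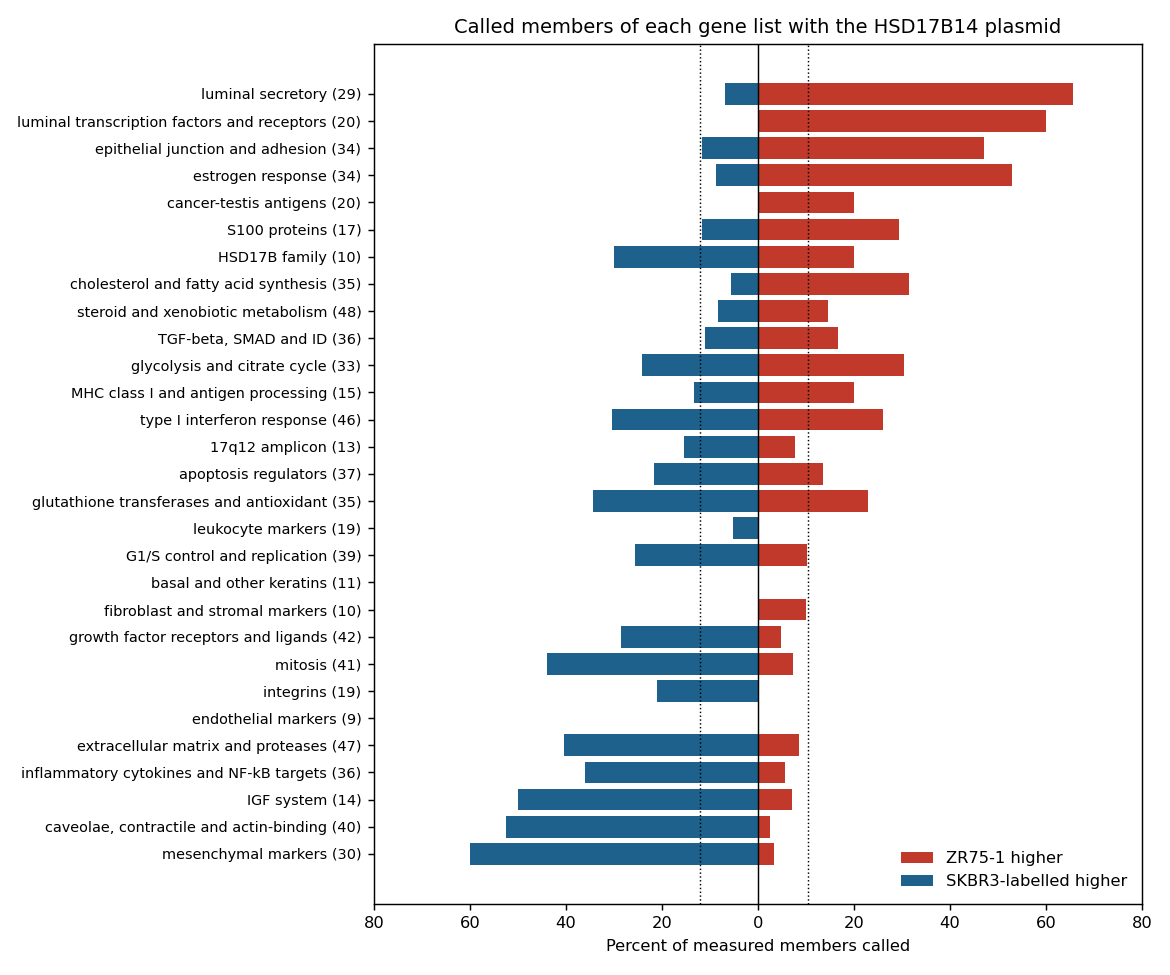
Percent of measured members called higher in ZR75-1 (right) and in the SKBR3-labelled cells (left) with the HSD17B14 plasmid for each list of at least 9 measured genes, ordered by median log2 difference, with the number measured in brackets and the share over all named genes as dotted lines. Luminal, secretory and junction lists lie to the right, mesenchymal, contractile, IGF and matrix lists to the left, and the interferon list has called members on each side in like numbers.

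Inflammatory cytokines and targets of NF-kB, a transcription factor of inflammation, were higher in the SKBR3-labelled cells in 13 of 36 and lower in 2, with a median of -1.02 (-0.49 with values raised to the floor). CXCL8, the chemokine interleukin 8, read 330.2 and 336.0 there and 1.1 and 0.8 in ZR75-1, at least 18.9-fold higher. PTX3, a secreted pattern receptor, read 303.6 and 354.2 against 0.4 and 0.1, at least 18.6-fold higher. Both were under the floor on all 4 ZR75-1 arrays. CXCL2 was at least 11-fold higher (211.7 and 177.7 against 13.9 and 11.9), TNFAIP3, an inhibitor of NF-kB signalling, 5.34-fold and BIRC2 2.51-fold. CCL5, a T-cell attracting chemokine, was 12.8-fold higher in ZR75-1 (278.8 and 255.4 against 22.2 and 19.7), and the other member higher there was NFKBIA, at 1.46-fold. With the vector 10 of the 15 were called in the same direction. The 15 are 41.7% of the list, against 22.5% of all genes. The count of 13 was 7 without SKBR3-labelled array 1 and 8 without SKBR3-labelled array 2 or ZR75-1 array 1. The promoter of CXCL2, on the minus strand at chr4:74099146-74099445, is shown with its match to the NF-kB motif (GGG, any 2 bases and TTTCC) in capitals because it was called in both pairs and held a match.
CXCL2: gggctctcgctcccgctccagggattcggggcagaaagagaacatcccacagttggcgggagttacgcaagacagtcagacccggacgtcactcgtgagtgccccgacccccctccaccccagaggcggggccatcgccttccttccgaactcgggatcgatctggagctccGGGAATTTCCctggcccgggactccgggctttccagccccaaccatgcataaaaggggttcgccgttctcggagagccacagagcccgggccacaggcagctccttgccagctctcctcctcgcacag
Those letters, on either strand, were in 14 of 37 windows of this list (37.8%) and in 1.91% of all windows. The list was made of known NF-kB targets, so its share is no result of these data. Of windows of genes called higher in ZR75-1, 2.52% held them, of those higher in the SKBR3-labelled cells 2.59%, and of all genes on the array 2.42%. None of these shares was tested.

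Interferon-stimulated genes are where the line difference with the plasmid departed most from that with the vector. With the plasmid 12 of 46 were higher in ZR75-1, 14 were higher in the SKBR3-labelled cells, 20 did not pass, and the median was -0.04. That is 56.5% called, against 22.5% of all genes. With the vector 28 were higher in ZR75-1, 9 in the SKBR3-labelled cells, and the median was 0.86. There 80.4% were called, against 27.8% of all genes. MX1, an antiviral GTPase, read 1586.3 and 1486.9 in ZR75-1 and 1766.8 and 1751.1 in the SKBR3-labelled cells with the plasmid (difference -0.20 ± 0.13, adjusted p = 0.372). With the vector it read 1758.7 and 1721.7 against 498.1 and 454.9 (difference 1.87 ± 0.13, adjusted p = 1.74e-06). The ZR75-1 arrays were alike in both pairs, and the SKBR3-labelled arrays were low with the vector alone. The interaction, plasmid pair minus vector pair, was -2.07 ± 0.19 (adjusted p = 0.00164).

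The same contrast passed for 20 of 8746 probe sets (0.229%), 18 with a difference that was lower with the plasmid and 2 with one that was higher (0.0229%), and at an unadjusted limma p under 0.05 for 918 (10.5%). Of the 46 interferon genes 11 passed, against 0.206% of all probe sets in that direction. All 46 had an interaction below 0, as did 3984 of all 7713 genes. An unadjusted limma p under 0.05 in that direction was found for 40 of them, against 5.76% of all probe sets. OAS3, which makes the oligoadenylates that activate RNase L, read 553.2 and 508.0 against 459.0 and 452.1 with the plasmid and 631.3 and 609.6 against 118.4 and 143.8 with the vector (interaction -2.03 ± 0.20, adjusted p = 0.00164). OAS1 (-2.12), USP18, which removes the ubiquitin-like ISG15 (-2.07), and UBE2L6, which attaches it (-1.46), passed too. OAS1 and USP18 were still called higher in ZR75-1 with the plasmid, by 1.72-fold and 2.36-fold (the OAS1 call was lost with the mean-independent prior, adjusted p = 0.0921), while MX1, OAS3 and UBE2L6 were not called there. The median interaction over the 46 genes was -1.17.

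Part of the interferon list differed between the lines in either pair. IFI16, a nuclear DNA sensor, read 50.7 and 37.6 in ZR75-1 and 715.9 and 599.9 in the SKBR3-labelled cells, 15-fold higher there, and MX2 was 9.95-fold higher. IFITM3, IFITM2 and IFITM1, membrane proteins that block viral entry, were 6.43-fold, 4.44-fold and 3.21-fold higher, and the nuclear body protein SP100 5.09-fold. All 6 were called in the same direction with the vector, and in all 21 of the 46 genes were. RIGI and EIF2AK2, sensors of viral RNA, were higher in the SKBR3-labelled cells with the plasmid (1.98-fold and 1.66-fold) and had the opposite sign with the vector (0.26 and 0.27), where neither passed. Their interaction did not pass (adjusted p = 0.0529 and 0.16). The EIF2AK2 call was lost without either SKBR3-labelled array or ZR75-1 array 2, after median centring and with the mean-independent prior (adjusted p up to 0.112).

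**Figure D5:**
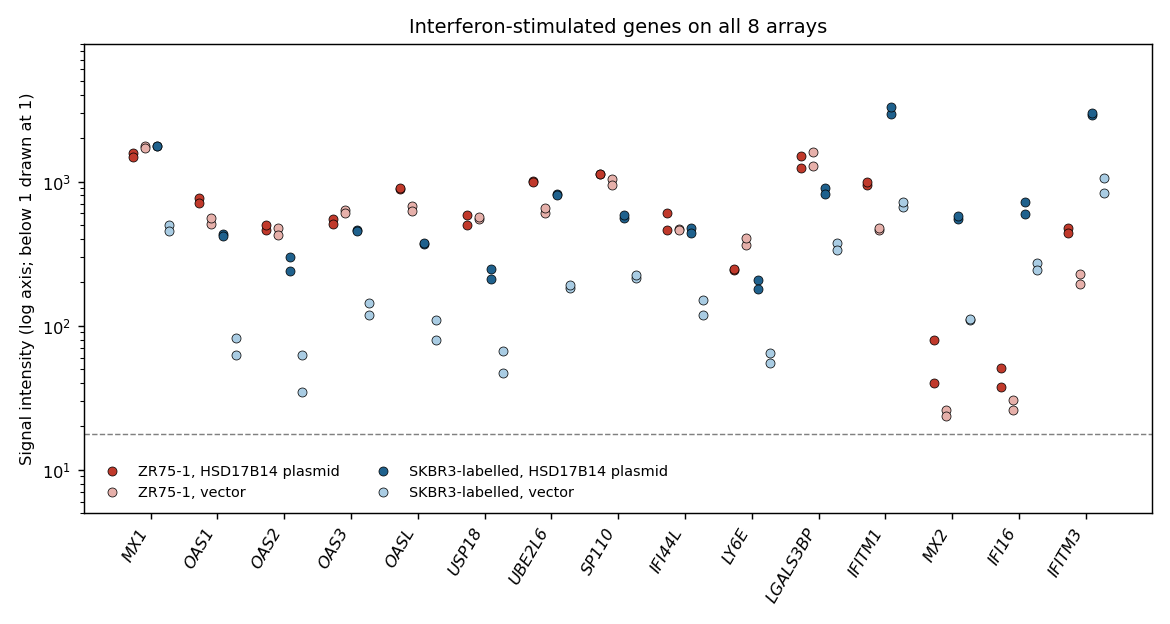
Signal intensity (log axis) of 15 interferon-related genes on all 8 arrays, 1 point per array and colour per group, with the common floor as a dashed line. For MX1, the OAS genes, USP18, UBE2L6, SP110, IFI44L and LY6E the SKBR3-labelled vector arrays lie lowest, and for MX2, IFI16 and IFITM3 the SKBR3-labelled arrays lie above the ZR75-1 arrays of the same plasmid or vector.

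Promoters of interferon genes are shown because these genes moved together and because factors activated by interferon are known to bind the response element, searched here as GAAA, any 2 bases and GAAA again. OAS3 (chr12:112938224-112938523, plus strand, 2 matches), IFITM1 (chr11:313790-314089, plus strand, 2 matches) and MX1 (chr21:41420308-41420607, plus strand, 1 match, 1 of its 3 windows) are given as above, with matches on either strand in capitals.
OAS3: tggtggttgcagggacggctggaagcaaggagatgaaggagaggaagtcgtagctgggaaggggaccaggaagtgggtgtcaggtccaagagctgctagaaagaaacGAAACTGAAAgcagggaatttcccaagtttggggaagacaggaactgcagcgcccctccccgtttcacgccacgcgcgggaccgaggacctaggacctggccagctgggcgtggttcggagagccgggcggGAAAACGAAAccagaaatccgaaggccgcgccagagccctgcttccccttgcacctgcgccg
IFITM1: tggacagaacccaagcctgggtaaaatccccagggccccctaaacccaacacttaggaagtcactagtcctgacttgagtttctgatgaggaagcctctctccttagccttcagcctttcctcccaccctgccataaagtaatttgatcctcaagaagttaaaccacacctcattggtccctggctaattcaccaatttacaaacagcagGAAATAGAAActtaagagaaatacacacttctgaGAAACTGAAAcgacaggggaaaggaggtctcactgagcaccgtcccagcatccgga
MX1: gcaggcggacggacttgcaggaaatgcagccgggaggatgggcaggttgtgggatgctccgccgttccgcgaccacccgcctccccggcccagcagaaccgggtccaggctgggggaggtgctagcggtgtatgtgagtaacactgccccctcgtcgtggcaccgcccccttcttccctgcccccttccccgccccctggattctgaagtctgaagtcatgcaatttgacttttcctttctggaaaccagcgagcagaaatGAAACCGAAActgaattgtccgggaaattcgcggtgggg
The first base of the match nearest the start site lay at -12 in OAS3, -6 in IFITM1 and 12 in MX1, relative to that site. The letters were in 30 of 51 windows of the interferon list (58.8%) and in 3.57% of all windows, a description of the letters and not of binding. That list was made of known interferon-stimulated genes, so its share is no result of these data. Of windows of genes called higher in ZR75-1, 2.84% held them, of those higher in the SKBR3-labelled cells 3.68%, and of all genes on the array 3.35%. For genes with a called interaction it was 6 of 26 windows (23.1%). The genes that held them, IFI44L, IFITM1, LGALS3BP, MX1 and OAS3, are all on the interferon list, so this share is no separate result. None of these shares was tested.

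The count of 12 interferon genes higher in ZR75-1 was 7 without SKBR3-labelled array 1, 6 without array 2 and 7 without ZR75-1 array 2, and the mean-independent prior left 4. The 11 interactions were 3, 5, 2 and 0 without SKBR3-labelled arrays 1 and 2 and ZR75-1 arrays 1 and 2, and 5 and 4 without ZR75-1 vector arrays 1 and 2, although the median interaction stayed between -1.04 and -1.21 under the alternatives that give one, except the value plus 32, at -0.94.

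The other called interactions were mixed in kind. LY6E, a membrane protein induced by interferon, read 243.6 and 247.4 against 206.3 and 180.1 with the plasmid and 364.9 and 406.8 against 54.7 and 65.0 with the vector (-2.34). IGFBP4 was higher in the SKBR3-labelled cells in both pairs and by more with the plasmid (-3.10 against -1.62). EPHX1 (-2.19), MUC1 (-2.38), S100A9 (-2.14) and IGFBP2 (-5.21) were higher in ZR75-1 in both pairs and by less with the plasmid. For MUC1, S100A9 and IGFBP2 the SKBR3-labelled vector arrays lay under the floor (9.5 and 15.1, 7.4 and 11.1, and 1.4 and 0.7), so the size of that interaction is not a measured fold. GNB2, a G protein subunit, passed at -1.33. The 2 above 0 were RPL38, a ribosomal protein, at 263.8 and 381.6 against 272.3 and 227.0 with the plasmid and 165.0 and 160.3 against 385.8 and 427.1 with the vector (1.67), and CSRP2, a LIM-domain protein, at 3.76. For CSRP2 all 4 ZR75-1 arrays lay under the floor, and raised to it the differences were -4.11 with the plasmid and -4.04 with the vector.

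Line differences that turned direction were few. ACTN4, PKM and ATF3 were the 3 called in opposite directions in the pairs, and none had a called interaction. PKM, the pyruvate kinase of glycolysis, read 364.4 and 385.6 in ZR75-1 and 645.4 and 571.3 in the SKBR3-labelled cells with the plasmid, and 767.1 and 937.8 against 645.1 and 491.6 with the vector (interaction adjusted p = 0.0607). ATF3, a stress-induced factor, read 166.0 and 158.0 against 95.1 and 104.6 with the plasmid and 131.0 and 133.9 against 191.6 and 178.5 with the vector (adjusted p = 0.0728). Both calls with the plasmid were lost without SKBR3-labelled array 1 or ZR75-1 array 1, and PKM's also without ZR75-1 array 2.

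Among genes called with the plasmid whose sign was opposite with the vector, AGPAT1, which makes phosphatidic acid, was 2.18-fold higher in the SKBR3-labelled cells (57.1 and 49.4 against 115.0 and 116.1, and 117.8 and 98.0 against 94.5 and 94.5 with the vector). AMPD3 and the chemokine CXCL1 were higher there too. Toward ZR75-1 they were FDPS, which makes farnesyl diphosphate (1.59-fold), the proteasome subunit PSMD4 (1.55-fold), the chaperonin subunit CCT2 (1.52-fold), ELOC (1.51-fold) and DAP3 (1.42-fold). With the vector none of these 8 passed, and none had a called interaction (adjusted p from 0.128 to 0.338). All except AGPAT1 lost the call with the plasmid without at least 1 of the plasmid arrays.

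The pairs of arrays with like spike-in level gave the same directions for the lists that lead above. The median difference was 2.18 within the low arrays and 1.51 within the high ones for luminal factors, 2.73 and 2.27 for secretory genes, 1.47 and 1.65 for junction genes, -2.81 and -3.55 for mesenchymal markers and -0.99 and -1.09 for inflammatory genes, each 1 array against 1. For interferon genes it was 0.10 and -0.12, on either side of 0.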

How the data were processed

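Signals of 8 HG-Focus arrays, 2 per line and plasmid, were the intensity values the submitters deposited, with MAS5 named as their software per the submitters' processing notes (version not given in the sources used here). Their trimmed means were 100.1 on each array, so a difference is relative to the array's whole signal. Values below 1 were raised to 1 and log2 was taken. Of 8746 probe sets tested, 7840 had 1 gene symbol in the platform annotation, 388 several and 518 none here, and a gene was read from its probe set with the highest mean. limma 3.58.1 (R 4.3.3) fitted 4 group means over the 8 arrays with a prior dependent on the mean, and p-values were adjusted by Benjamini-Hochberg over all probe sets, with 0.05 as the threshold. Errors beside log2 differences are that fit's standard errors (n = 2 arrays per group). The fit was tested on simulated data, with 200 changed probe sets in each of 20 runs.

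The members and gene lists were chosen with earlier results of these data known. Genes were named by rule: the HSD17B family and line markers, the 20 largest differences in each direction past the threshold, up to 6 members per list by test statistic, the 8 largest interactions and the 6 largest sign changes in each direction. Genes named beyond it were chosen after their values were seen, namely ACTN4, AP1M2, CST4, CTSB, CTSV, DSG2, DSP, FGFR3, FOXA1, GNB2, IGF1R, INSR, LDHA, MMP9, NEK2, NFKBIA, PERP, S100A6, SNAI2, TAGLN2, TSPAN8, TWIST1, UBE2S and UGCG. GREB1 was not analysed here. A signal of control probe sets is not reported here. Replicate numbers did not pair the arrays (r of deviations -0.04 to 0.07). Alternatives were other normalizations, filters, floors, priors and blocks, and leaving out each array.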

Additional observations from a re-analysis of the deposited data

Results flagged for a closer look

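For 20 genes the interaction test in limma, of the line difference with the plasmid against that with the vector, passed at an adjusted p under 0.05. The interaction on the log2 scale (plasmid pair minus vector pair) was below 0 in 18. Interferon-stimulated genes were MX1 at -2.07, OAS1 at -2.12, OAS2 at -2.44, OAS3 at -2.03, OASL at -1.52, USP18 at -2.07, UBE2L6 at -1.46, SP110 at -1.22, IFI44L at -1.6, IFITM1 at -1.12 and LGALS3BP at -1.35. LY6E stood at -2.34, IGFBP2 at -5.21, IGFBP4 at -1.49, S100A9 at -2.14, EPHX1 at -2.19, MUC1 at -2.38 and GNB2 at -1.33. It was above 0 in RPL38 at 1.67 and CSRP2 at 3.76. The value for CSRP2 rests on signals under the floor, and raised to it the line differences were alike, -4.11 with the plasmid and -4.04 with the vector. For IGFBP2 they were 3.89 and 5.33 when raised to the floor, a smaller gap than -5.21. None of the 20 passed with a prior not dependent on the mean or without ZR75-1 array 2.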

How the results depend on the processing

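With the plasmid the 1934 calls fell to 1184 with a prior not dependent on the mean and ran from 1178 to 2001 when 1 array was left out. The 2405 calls with the vector ran from 1940 to 2263 without 1 array. The 1533 calls shared by both pairs fell to 911 with that prior and ran from 1039 to 1426 without 1 array. The 20 interaction calls were 39 with the 40th percentile filter, 45 with the 60th, 43 with values raised to the floor, 7 after median centring and 0 with a prior not dependent on the mean, and ran from 0 to 28 without 1 array. At an unadjusted p under 0.05 the main limma test gave 918. Fewer arrays leave fewer residual degrees of freedom, and the cause of the other changes was not tested. With the replicate block the counts were 1895, 2358, 1509 and 29 in the same order, and since the numbers did not pair the arrays this block is a number only. Of 184 called genes among 230 named, 159 kept their call and direction under all 18 alternatives. No named gene past the threshold turned direction. Medians of the luminal, estrogen, secretory, junction, mesenchymal, actin, matrix, IGF, inflammatory and mitotic lists kept their sign throughout, and that of the interferon list, near 0, did not. Signals under 17.6 limit folds to bounds, and 2 arrays per group limit precision.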
